A study of Mus musculus with 3 samples.

Results

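Myoglobin (Mb) and 9 genes that bring fatty acids into heart cells and hold them there were followed through mouse ventricle development. The genes were taken by name from the deposited transcript annotation, and the names matched 12 of the 48626 loci in the expression table. Of these, 10 are the mRNA loci of the genes and 2 are single-exon loci on the opposite strand of Vldlr, which are reported apart. All tissue was heart ventricle of C57BL/6 mice, taken at embryonic days E10.5 and E13.5 and from adults of 8 weeks. Each stage gave 1 stranded total RNA library, sequenced from both ends. It is not given how many hearts went into a library, or their sex. With 1 library per stage no test between stages was possible, and every difference below has no replicate check.

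The adult heart draws most of its energy from fatty acids, while the embryonic heart relies more on glucose and lactate. Triglyceride in circulating lipoproteins is split at the capillary wall by lipoprotein lipase (Lpl), which Gpihbp1 holds on the endothelium, and Vldlr binds lipoproteins beside it. The released fatty acids pass the membranes of endothelial cells and cardiomyocytes with the help of the scavenger receptor Cd36 and the transport protein and acyl-CoA synthetase Slc27a1, and are carried in the cytosol by small binding proteins, of which Fabp3 is the cardiomyocyte form, Fabp4 the form of capillary endothelium and fat cells, and Fabp5 a form of endothelium, skin and macrophages. Surplus is stored in lipid droplets coated by perilipins, with Plin2 found in most cells and Plin5 in oxidative muscle, where it ties droplets to mitochondria. Mb, the oxygen-binding globin of heart and slow muscle, eases oxygen supply to the mitochondria that burn this fuel.

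From E10.5 to the adult, 8 of the 10 genes rose by at least 2 on the log2 scale, 1 fell by as much (Fabp5) and 1 stayed inside that limit (Plin2). Levels are given as FPKM, the number of fragments scaled to transcript length and to library size, which allows genes of unequal length to be compared. Changes are differences of log2(FPKM + 1), and a gene was said to rise or fall only where this difference was 2 or more in size. The background is the 12569 mRNA loci that reached 1 FPKM in any of the libraries, of which 5.59% rose and 8.1% fell by this measure from E10.5 to the adult. The median difference was 3.86 for the 10 genes and -0.40 for the background. All 10 genes belong to the background, Plin5 through its adult level and the others through every library.

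Between E10.5 and E13.5 the 10 genes stayed mostly inside the limit. None rose and 1 fell (Lpl), against a background of 0.851% of loci higher and 0.247% lower, and the median difference was 0.46 for the 10 genes and 0.17 for the background. From E13.5 to the adult, 8 rose and 1 fell (Fabp5), against 4.41% of loci higher and 9.88% lower, with medians of 3.98 and -0.50. Plin5 is 1 of the 8, at 4.65, but is listed at exactly 0 at E13.5. The median of the 10 genes lies between Plin5 and Fabp3 (3.31), so it rests in part on that 0. The comparisons share libraries, so their counts are not independent.

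**Figure D1:**
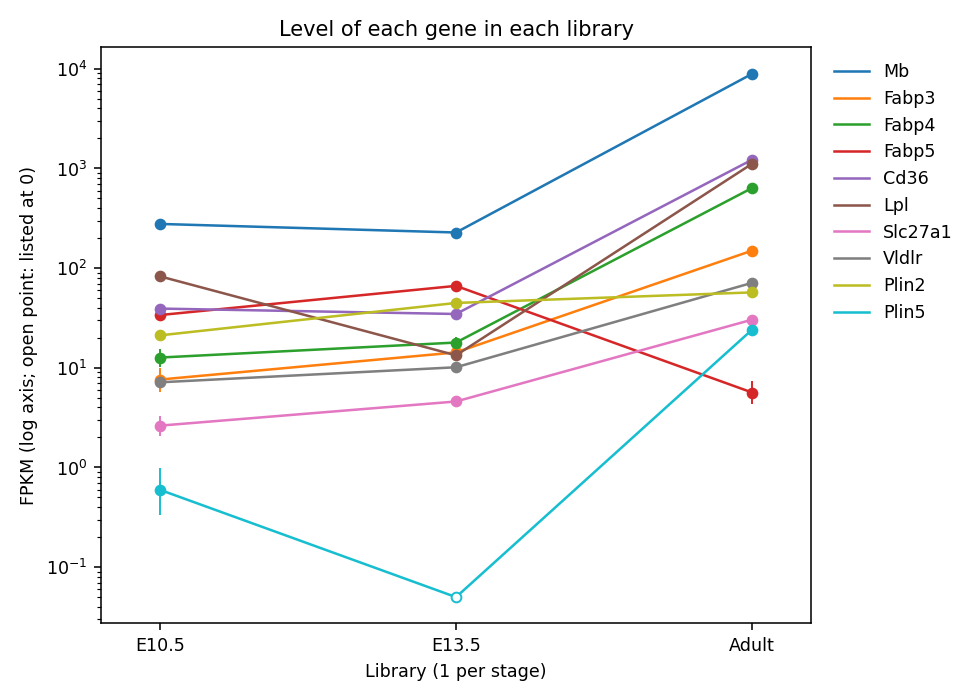
FPKM of each of the 10 genes (log axis) in the E10.5, E13.5 and adult libraries, 1 library per stage; vertical bars are approximate 95% counting intervals within a library and the open point marks Plin5, which is listed at 0 at E13.5. Mb is highest in every library and reaches 8914 FPKM in the adult, while Fabp5 is the 1 gene whose line ends lower than it begins, at 5.65 FPKM.

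Read numbers were estimated from the lowest steps in the values, at about 13.8, 26.7 and 13.8 fragments for a transcript of 1 kb at 1 FPKM in the E10.5, E13.5 and adult libraries. Intervals of 95% given below are exact Poisson intervals on these approximate fragment numbers. They cover counting error within a library only, and say nothing of the spread between animals. The deposited values sum to 601115, 808971 and 443471 FPKM over all loci in the same order, and scaling by the median ratio over mRNA loci would move the differences of well-expressed genes by about -0.16 from E10.5 to E13.5, 0.57 from E13.5 to the adult and 0.41 from E10.5 to the adult.

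Mb was the most abundant of the 10 genes at each stage. It stood at 277.8 FPKM at E10.5 (95% interval 269 to 287), 227.8 at E13.5 (222 to 234) and 8914 in the adult (8863 to 8964). The embryonic libraries were close to each other and the adult library was far above both, by 32.1-fold over E10.5 and 39.1-fold over E13.5. Among the 20117 mRNA loci Mb ranked 121st at E10.5, 241st at E13.5 and 2nd in the adult, where it took 2.7% of the summed mRNA FPKM. The locus lies on the minus strand of chromosome 15 from 77015481 to 77050668 (mm10, the same assembly as GRCm38), with 3 matched RefSeq transcripts of up to 1108 nt.

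The rise of Mb from E10.5 to the adult was larger than that of each of 8 genes that mark cardiomyocytes. Of these 8 markers, 2 also rose by the limit and none fell. Their summed FPKM was 15945, 23510 and 27461 in stage order. Myl2, the ventricular myosin light chain, was the most abundant, at 7790, 12217 and 11568 FPKM. Relative to this sum Mb was at 0.0174, 0.00969 and 0.325. In bulk tissue fewer cells of a type and less RNA per cell cannot be told apart, and this holds for every value here. Cytoglobin (Cygb), another tissue globin, rose from 1.07 and 0.944 to 13.9 FPKM, and neuroglobin (Ngb) did not reach 1 FPKM in any library. Both had far lower levels than Mb at every stage.

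Promoter windows from RefSeq (GRCm38.p6) were read for members of this set, each of 300 bases from 250 before the transcript start, and 7 of the 10 genes matched at least 1 window (13 windows in all). Fabp4, Fabp5 and Lpl had no entry. The windows below are those of 3 genes that each rose by 31-fold or more from E10.5 to the adult (Mb, Cd36 and Plin5). Windows of Fabp3, and of Plin2, which did not pass the limit, follow them. Capitals mark AGGTCA on either strand (TGACCT on the other), the hexamer read by nuclear receptors such as the PPAR and RXR factors. Start sites are those of RefSeq, and the Cd36 window and the Mb window lie inside their deposited loci, which also hold transcripts that start further upstream.
Mb, chr15:77022738-77023037, minus strand: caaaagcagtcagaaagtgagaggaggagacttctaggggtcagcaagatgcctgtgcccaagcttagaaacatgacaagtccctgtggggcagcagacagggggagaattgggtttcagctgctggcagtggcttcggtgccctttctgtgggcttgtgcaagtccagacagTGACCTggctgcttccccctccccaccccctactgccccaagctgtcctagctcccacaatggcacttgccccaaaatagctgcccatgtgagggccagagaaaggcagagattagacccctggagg
Cd36, chr5:17835847-17836146, minus strand: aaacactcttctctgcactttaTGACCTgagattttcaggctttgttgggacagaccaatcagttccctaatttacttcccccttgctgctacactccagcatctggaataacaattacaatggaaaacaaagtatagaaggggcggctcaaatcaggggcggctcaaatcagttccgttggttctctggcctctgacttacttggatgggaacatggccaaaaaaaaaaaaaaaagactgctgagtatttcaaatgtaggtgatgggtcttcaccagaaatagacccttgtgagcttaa
Plin5, chr17:56117499-56117798, minus strand: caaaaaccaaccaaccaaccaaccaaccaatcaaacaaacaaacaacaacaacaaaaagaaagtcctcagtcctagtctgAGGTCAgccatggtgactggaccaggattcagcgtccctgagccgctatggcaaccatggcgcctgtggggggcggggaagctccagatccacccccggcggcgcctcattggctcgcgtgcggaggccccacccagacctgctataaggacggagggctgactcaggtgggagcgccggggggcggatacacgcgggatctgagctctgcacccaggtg
Fabp3, chr4:130308488-130308787, plus strand: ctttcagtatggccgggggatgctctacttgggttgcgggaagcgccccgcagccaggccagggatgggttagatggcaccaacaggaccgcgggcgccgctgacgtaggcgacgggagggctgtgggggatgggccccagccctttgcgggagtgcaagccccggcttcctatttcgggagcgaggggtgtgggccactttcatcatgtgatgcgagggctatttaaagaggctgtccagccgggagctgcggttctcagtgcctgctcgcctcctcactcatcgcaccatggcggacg
Plin2, chr4:86670010-86670309, minus strand: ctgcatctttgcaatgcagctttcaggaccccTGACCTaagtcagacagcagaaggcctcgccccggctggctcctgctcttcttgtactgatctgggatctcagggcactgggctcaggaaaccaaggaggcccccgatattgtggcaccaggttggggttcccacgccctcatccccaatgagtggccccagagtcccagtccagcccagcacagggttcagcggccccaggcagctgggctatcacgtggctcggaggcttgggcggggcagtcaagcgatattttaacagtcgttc

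The hexamer was found in windows of 4 of the 7 genes (Mb, Cd36, Plin5 and Plin2), 77, 228, 170 and 218 bases before the start site in the windows shown. It stands in 16.3% of all 32851 RefSeq promoter windows of this length, so that a match is common. In all, 6 of the 13 windows hold it, and 2 of these are overlapping Mb windows with the same site. Plin2, which stayed inside the limit, holds it, and Fabp3, Slc27a1 and Vldlr, which rose from E10.5 to the adult, do not. The E-box CANNTG was in 12 of the 13 windows and in 72.3% of all windows, and the GC box GGGCGG, on either strand, in 7 of the 13 and in 35.7% of all. The spaced pair AGGTCANAGGTCA was in none of the 13 windows and in 0.0396% of all windows. TATAAA on either strand was in none of them and in 13.6% of all windows, and the MEF2 and CArG box motifs, which many muscle genes carry, were also in none, against 3.19% and 1.63% of all windows. These matches describe the letters of short windows only and carry no statement on binding.

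Lpl, the enzyme that frees fatty acids from lipoproteins, had the most uneven course of the 10 genes on the log2(FPKM + 1) scale. With 0.1 added in place of 1, Plin5 moved further, by -2.80 from E10.5 to E13.5 and 7.92 from there to the adult. Lpl then moved by -2.625 and 6.376. The level of Lpl was 82.8 FPKM at E10.5 (95% interval 80.4 to 85.2), 13.3 at E13.5 (12.7 to 14.1) and 1116 in the adult (1108 to 1125). The E13.5 library was lowest by a wide margin, 6.21-fold below E10.5, and the adult library was 13.48-fold above E10.5. It was the 1 member that fell between the embryonic stages, by 2.55 on the log2(FPKM + 1) scale, which is lower than all but 0.1% of the background loci. Its rise of 6.28 from E13.5 to the adult was above that of 99.9% of the background loci. The locus lies on chromosome 8 from 68880212 to 68906932 on the plus strand, and its matched transcript has 4049 nt.

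Long transcripts as a class read lower at E13.5, and this bears on Lpl. The median difference from E10.5 to E13.5 was 0.56 for 865 background loci whose longest matched transcript was up to 1000 nt, 0.41 from there to 2000 nt, 0.19 to 4000 nt, -0.12 to 8000 nt and -0.63 above 8000 nt. Between E10.5 and the adult the same classes differed little, from -0.41 to -0.36. Taken relative to loci of like length, Lpl was lower at E13.5 by a difference of -2.57 on the log2 scale (an alternative chosen after seeing the data). Fabp4 changed sign under it, from 0.47 to -0.10, and Vldlr, with a transcript of 8308 nt, went from 0.45 to 1.06. The part of RNA quality or library preparation in this trend was not tested.

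**Figure D2:**
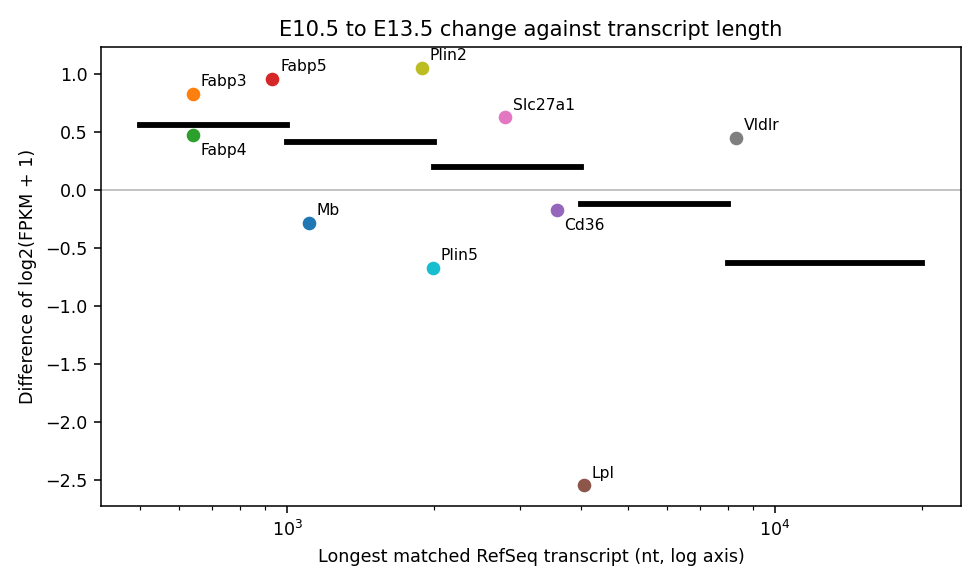
Difference of log2(FPKM + 1) between E10.5 and E13.5 for each gene (points) against the length of its longest matched RefSeq transcript in nt (log axis); black bars are the medians of background mRNA loci in 5 length classes, the last of them open above 8000 nt and drawn to a fixed end. The medians step down from 0.56 to -0.63 with length, and Lpl at -2.55 lies far under the bar of its class.

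Gpihbp1, the endothelial anchor of Lpl, was near 1 FPKM in both embryonic libraries and rose in the adult. Its levels were 0.806, 1.02 and 43.0 FPKM, so that the ratio of Lpl to Gpihbp1 was 103, 13 and 26 in stage order. The embryonic ratios rest on a low Gpihbp1 level, for which no counting interval is given. Lmf1, the factor that folds Lpl into its active dimer, was at 14.02, 12.7 and 14.3 FPKM. Angptl4, a secreted inhibitor of Lpl, was at 2.05, 6.43 and 7.08 FPKM, inside the limit in all 3 comparisons. Of 11 expressed partners and lipoprotein receptors on this list, Gpihbp1 alone rose from E10.5 to the adult and the endothelial lipase Lipg alone fell, from 3.74 to 0.113 FPKM. In the background 5.59% of loci rose and 8.1% fell. Under median-ratio scaling Lipg no longer passed the limit, at -1.98 in place of -2.09, and the lipase cofactor Apoc2 did, at 2.08 in place of 1.80. The median of the list was 0.22.

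Vldlr, which binds triglyceride-rich lipoproteins, rose about as much as Slc27a1. It was at 7.15 FPKM at E10.5 (95% interval 6.67 to 7.66), 10.1 at E13.5 (9.71 to 10.6) and 71.3 in the adult (69.7 to 72.8), on the plus strand of chromosome 19 from 27216600 to 27255803. The adult library was 9.96-fold above E10.5. The E13.5 library was 1.42-fold above E10.5, beyond counting error, and this difference of 0.45 on the log2 scale became 1.06 relative to loci of like length. Lpl exceeded Vldlr 11.6-fold at E10.5, 1.32-fold at E13.5 and 15.7-fold in the adult.

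Cd36, the membrane receptor for long-chain fatty acids, followed nearly the same course as Mb. Its levels were 39.3 FPKM at E10.5 (95% interval 37.5 to 41.1), 34.7 at E13.5 (33.5 to 35.9) and 1226 in the adult (1216 to 1236), a rise of 31.2-fold from E10.5. The adult library stood apart and the embryonic libraries were similar. Cd36 ranked 1626th, 2208th and 24th among mRNA loci. Its locus covers chromosome 5 from 17776725 to 17888960 on the minus strand with 10 assembled transcripts, and the microRNA Mir5109 is annotated within it.

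Slc27a1, the fatty acid transport protein of muscle and fat, rose from a much lower base. It was at 2.63 FPKM at E10.5 (95% interval 2.13 to 3.18), 4.59 at E13.5 (4.12 to 5.1) and 30.4 in the adult (28.7 to 32.2), 11.6-fold above E10.5. Its locus is on chromosome 8 from 71568859 to 71586846, on the plus strand. Cd36 exceeded it 15.0-fold, 7.55-fold and 40.3-fold in stage order. The other transport proteins of the family did not rise: Slc27a4 was at 7.17, 9.47 and 5.34 FPKM, and Slc27a6, known as a heart form, was under 1 FPKM in every library at 0.438, 0.946 and 0.169. Slc27a3 was at 3.37, 5.57 and 0.334 FPKM. It fell from E13.5 to the adult, at -2.30, and was inside the limit from E10.5 to the adult, at -1.71. Among 6 expressed genes on the list of other transporters and binding proteins, only Cav1 rose from E10.5 to the adult, from 10.4 over 47.6 to 188 FPKM. In the background 5.59% of loci rose. Cav1 is a caveolar coat protein of endothelium and other cells, and the median of the list was 0.18.

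The 3 cytosolic binding proteins exchanged places. Fabp5 made up 62.5% of their summed FPKM at E10.5 and 67.3% at E13.5, but 0.712% in the adult. Fabp4 went from 23.4% and 18.2% to 80.4%, and Fabp3 held 14.1%, 14.5% and 18.9%. The ratio of Fabp4 to Fabp5 was 0.375, 0.27 and 113 in stage order.

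Fabp3, the binding protein of cardiomyocytes, was at 7.62 FPKM at E10.5 (95% interval 5.88 to 9.64), 14.3 at E13.5 (12.6 to 16.2) and 150.0 in the adult (142 to 158). The rise over E10.5 was 19.7-fold, the E13.5 library lay above the E10.5 library beyond counting error, and the adult library was highest. Relative to loci of like length the difference from E10.5 to E13.5 shrank to 0.256 in place of 0.825 on the log2 scale. Relative to the cardiomyocyte marker sum Fabp3 was at 0.00048, 0.00061 and 0.00546. It lies on the plus strand of chromosome 4 from 130308638 to 130316738.

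Fabp4 had the largest rise of the 10 genes from E10.5 to the adult, 5.55 on the log2 scale or 50.3-fold. It was at 12.7 FPKM at E10.5 (95% interval 10.4 to 15.2), 17.9 at E13.5 (16.0 to 20.02) and 637.5 in the adult (621 to 654), with the embryonic libraries close together and the adult far above. It ranked 49th among mRNA loci in the adult. Its locus lies on chromosome 3 from 10204343 to 10208576, on the minus strand.

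Endothelium, fat cells and macrophages all make Fabp4, and their markers were read in the same libraries. The summed FPKM of 8 endothelial markers was 309, 243 and 320, with 1 of the 8 (Cldn5) higher in the adult than at E10.5 by the limit and none lower. Relative to this sum Fabp4 was at 0.041, 0.0737 and 1.99, and Cd36 at 0.127, 0.142 and 3.83. The 8 adipocyte markers stayed under 1 FPKM in every library, with a sum of 1.18, 1.57 and 0.768 FPKM, Plin1 listed at 0 in all 3 libraries and Adipoq at 0.359, 0.166 and 0.115. Macrophages also make Fabp4, Fabp5, Cd36, Lpl and Plin2, and all 8 macrophage markers rose from E10.5 to the adult, with a sum of 40.8, 115 and 451 FPKM, led by Lyz2. Their part in the rises above was not tested.

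**Figure D3:**
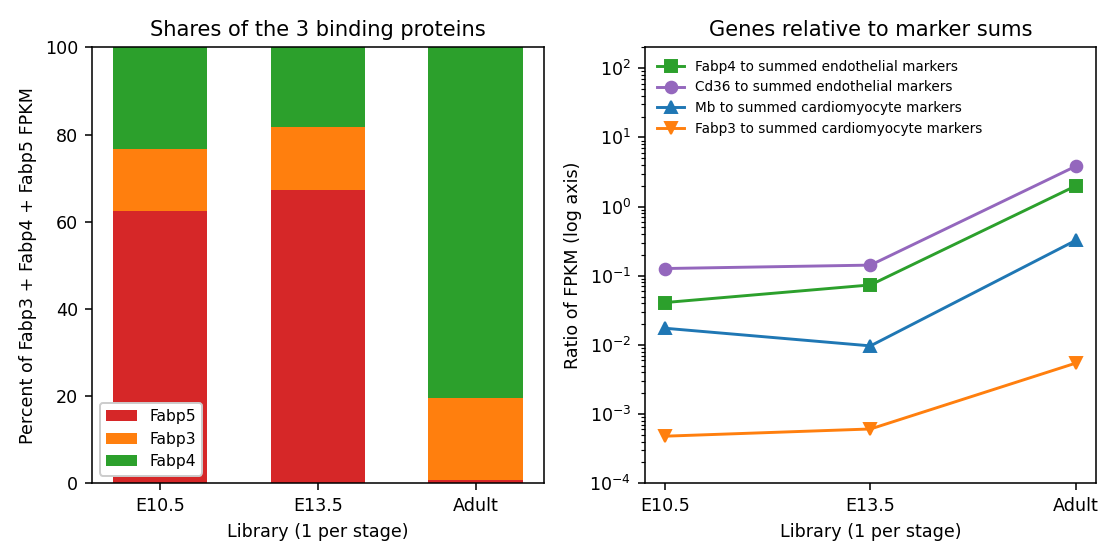
Left, percent of the summed FPKM of Fabp3, Fabp4 and Fabp5 in each library; right, FPKM of 4 genes divided by the summed FPKM of endothelial or cardiomyocyte markers in the same library (log axis), 1 library per stage. Fabp5 shrinks from 67.3% at E13.5 to 0.712% in the adult while Fabp4 grows to 80.4%, and each of the 4 ratios is highest in the adult.

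Fabp5 was the 1 gene of the set that fell in the adult. Its levels were 33.8 FPKM at E10.5 (95% interval 30.7 to 37.2), 66.4 at E13.5 (63.2 to 69.7) and 5.65 in the adult (4.45 to 7.14). The adult library was lowest, 5.99-fold below E10.5 and 11.8-fold below E13.5, while the E13.5 library was 1.96-fold above E10.5. Under median-ratio scaling its difference from E10.5 to the adult was -2.02 in place of -2.39, just past the limit. It lies on chromosome 3 from 10012435 to 10017143 on the plus strand, 187200 bp from Fabp4, with other loci between them. These 2 genes of 1 family moved in opposite directions from either embryonic stage to the adult. The family members around Fabp4 were at or near 0: Fabp9 was listed at 0 in all 3 libraries, Pmp2 reached 0.122 FPKM in the adult alone, and Fabp12 was at 0.127, 0.0141 and 0.056 FPKM.

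Fabp3 and Fabp5 have near-identical processed copies elsewhere in the genome, and their values are uncertain for this reason, since it is not given how fragments with several matches were counted. A search of the GRCm38 genome with each member's transcript found 1 copy of Fabp3 at 99.1% identity and 4 of Fabp5, at 94.7% to 98.6% identity, and none for the other 8 genes (at least 90% identity over at least 50% of the transcript). One Fabp5 copy, on chromosome 9 from 57483929 to 57484591, lies in a single-exon deposited locus of 952 nt without a gene name. That locus was at 44.2, 39.3 and 3.74 FPKM. Added to Fabp5 it gives 78.0, 106 and 9.39 FPKM, and a difference from E10.5 to the adult of -2.93 in place of -2.39 on the log2 scale. The difference from E10.5 to E13.5 shrinks to 0.43 in place of 0.95. The shares, order and similar courses given in this report use the Fabp5 locus alone. The coding sequences of the 3 binding proteins themselves share only 56.5% to 65.1% of their bases.

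Of the droplet coat proteins, Plin5 rose from E10.5 to the adult and Plin2 did not pass the limit. Plin5 was at 0.597 FPKM at E10.5 (95% interval 0.342 to 0.972, about 16 fragments), was listed at 0 at E13.5 and was at 24.2 in the adult (22.3 to 26.1). An exact 0 in these values can be a failed estimate, so no fold is given against E13.5. The adult library was 40.5-fold above E10.5. Plin5 lies on the minus strand of chromosome 17 from 56111601 to 56117548.

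Plin2 moved least of the 10 genes in both comparisons with the adult, and had their largest difference above 0, 1.05, from E10.5 to E13.5. It was at 21.2 FPKM at E10.5 (95% interval 19.4 to 23.0), 44.8 at E13.5 (42.9 to 46.6) and 57.1 in the adult (54.2 to 60.1). These intervals do not overlap, but the whole difference of 1.39 from E10.5 to the adult stayed inside the limit. Plin2 is on chromosome 4 from 86648430 to 86670105, on the minus strand. Plin5 was at 0.0282 of Plin2 at E10.5 and at 0.423 in the adult.

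Plin4, another droplet coat protein, is encoded 1734 bp from Plin5 on the same strand and also rose from E10.5 to the adult. Plin4 stood at 1.23, 0.0315 and 60.9 FPKM. Plin3, which binds droplets in most cells, was at 37.9, 61.0 and 62.0 FPKM, inside the limit in all 3 comparisons as Plin2 was.

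Of 18 expressed genes for lipid droplet coats, lipolysis and triglyceride synthesis, 9 rose from E10.5 to the adult and none fell, with a median of 2.12. In the background 5.59% of loci rose and 8.1% fell. The largest rises were those of Plin4 (4.79), of the phosphatidate phosphatase Lpin1 (4.08), which went from 2.84 and 2.74 to 64.1 FPKM, and of Dgat2 (4.0), an enzyme of the last step of triglyceride synthesis, which went from 5.03 and 3.41 to 95.6 FPKM. Pnpla2, the first triglyceride lipase of the droplet, rose from 7.82 and 4.94 to 81.9 FPKM. Its coactivator Abhd5 was at 8.84, 10.9 and 24.9 FPKM, inside the limit. The 2 largest falls from E10.5 to the adult, those of Hilpda (-1.54) and Bscl2 (-0.43), were also inside it. Hilpda stood at 8.39, 12.3 and 2.24 FPKM. It did pass the limit from E13.5 to the adult, at -2.04, but not under median-ratio scaling. The list shares Plin1 and Cidec with the adipocyte markers, and both stayed under 1 FPKM.

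Fatty acids that enter the cell are activated by acyl-CoA synthetases. Among the 5 long-chain forms Acsl1, the main form of heart, rose from 19.2 and 13.4 to 362 FPKM. Acsl3, which shares its locus with Utp14b so that the value covers both, fell from 44.3 and 59.3 to 8.01 FPKM. Under median-ratio scaling its difference from E10.5 to the adult was -1.95 in place of -2.33, inside the limit. The remaining 3 forms were inside the limit, and the list median was -1.22. From E10.5 to the adult 5.59% of background loci rose and 8.1% fell.

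Among 8 regulators known to act on these genes, 4 rose from E10.5 to the adult and none fell, against 5.59% and 8.1% of background loci. Their median was 2.21. That median lies between Esrra (1.82) and Pparg (2.61), and the Esrra locus is joined with Prdx5 so that its value covers both. Under median-ratio scaling 5 rose in place of 4, with Esrra at 2.23. The nuclear receptor Ppara went from 1.7 and 0.453 to 16.3 FPKM, and Pparg from 0.975 and 1.5 to 11.1. Meox2 and Tcf15, partner factors of heart capillary endothelium known to drive fatty acid uptake genes, were under 1 FPKM at E10.5, at 0.348 and 0.52, and reached 9.39 and 10.1 in the adult. Meox2 was as low at E13.5, at 0.328, while Tcf15 was at 2.37.

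**Figure D4:**
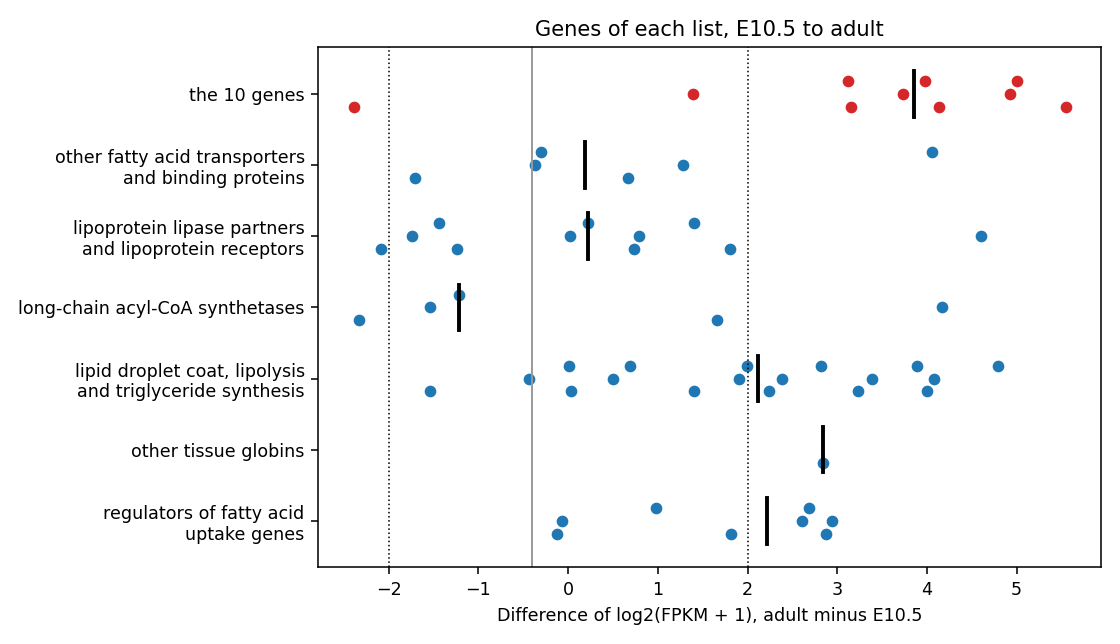
Difference of log2(FPKM + 1) between E10.5 and the adult for the 10 genes (red) and for expressed genes of 6 related lists (blue); black bars are medians, dotted lines the limit of 2 in either direction and the grey line the background median of -0.40. The 10 genes have a median of 3.86, the droplet list 2.12 and the acyl-CoA synthetases -1.22.

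The order of the genes changed between stages. At E10.5 it ran Mb, Lpl, Cd36, Fabp5, Plin2, Fabp4, Fabp3, Vldlr, Slc27a1 and Plin5, and the counting intervals of Fabp3 and Vldlr overlapped. At E13.5 Fabp5 and Plin2 came directly after Mb, the interval of Fabp3 overlapped those of Fabp4 above it and Lpl below it, and Fabp4 lay above Lpl without overlap. In the adult Cd36 and Lpl followed Mb, Fabp5 was last, and no neighbouring intervals overlapped. Intervals between animals would be wider than these.

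**Figure D5:**
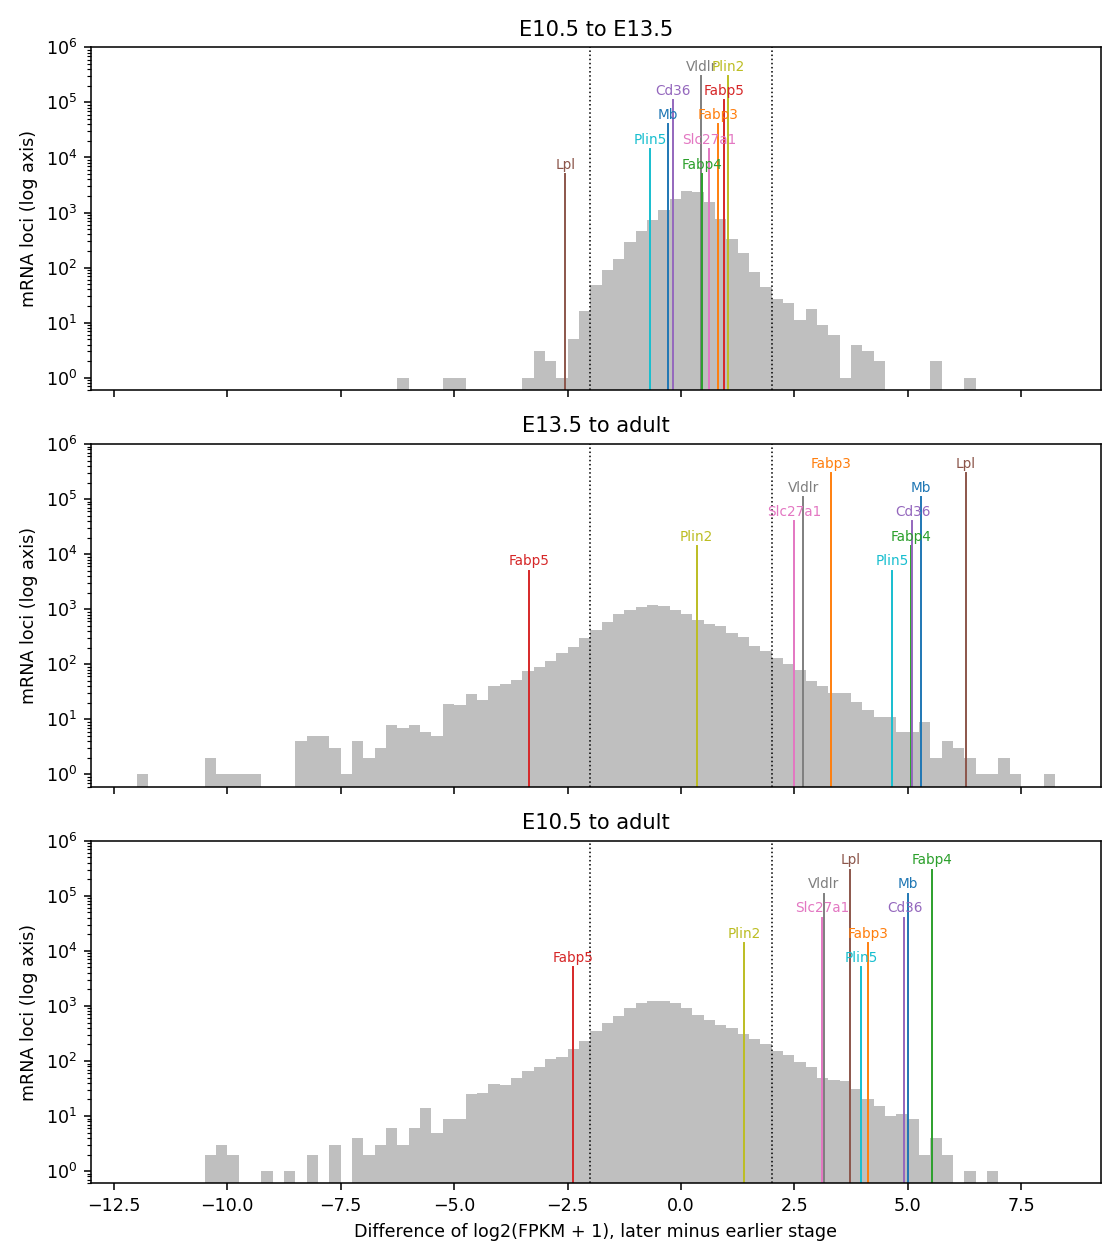
Distribution of the difference of log2(FPKM + 1) over 12569 background mRNA loci (grey, number of loci on a log axis) for the 3 comparisons, with each of the 10 genes as a coloured line and dotted lines at the limit of 2 in either direction. In both comparisons with the adult, 8 genes lie to the right of the upper limit and Fabp5 lies to the left of the lower limit.

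Genes with the most similar course were looked up by distance, the Euclidean distance between the pairs of differences (E10.5 to E13.5 and E13.5 to adult) among 7569 mRNA loci that reached 10 FPKM in any library and were above 0 in all. With 3 libraries this is a weak measure, and it describes only these values. For Mb the nearest outside the set were Hspb6, a small heat shock protein of muscle, at a distance of 0.078, with 4.48, 3.29 and 162 FPKM, then 2310042D19Rik at 0.2 and the ferroxidase Cp at 0.26. Cd36 was at 0.21 from Mb. For Cd36 they were the metalloreductase Steap4 (0.094), Hspb6 (0.228) and Cp (0.338). For Fabp3 they were Myh11, the smooth muscle myosin (0.064), the epoxide hydrolase Ephx2 (0.106), at 7.04, 14.3 and 149 FPKM, and the locus of the fatty acid oxidation enzyme Ech1 (0.222), which is joined with Lgals4 and Lgals6. For Fabp5 they were Dact3 (0.086), Jund (0.095) and Prr15 (0.096), all highest at E13.5 and lowest in the adult.

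Markers of atrium, fast skeletal muscle and red cells were read in the same libraries. All 4 atrial markers fell from E10.5 to the adult, with sums of 6382, 6766 and 40.9 FPKM, mostly from Myl7, Myl4 and Nppa. The embryonic ventricle is also known to use these genes, so this list cannot tell atrial tissue apart in the embryonic libraries. The 8 fast skeletal muscle markers summed to 54.3, 64.9 and 3.77 FPKM, led by Mylpf at E10.5 and by Tnni2 in the other 2 libraries, with Tnnc2 at 0 at E10.5 and Pvalb at 0 in the adult. Erythroid markers summed to 7281, 19401 and 1629 FPKM, mostly from the embryonic globin Hbb-y before birth. The share of fragments taken by these genes moves with stage, and its part in the values of the 10 genes was not tested beyond the scalings described.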

How the data were processed

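Total RNA of 1 ventricle library per stage (E10.5, E13.5, adult at 8 weeks) had been sequenced. Per the labels and the study's methods the authors mapped paired-end reads to mm10 with TopHat2 (Bowtie) and assembled them with Cufflinks, both with UCSC annotation and without it, with exact versions and other options not given in the sources used here. The authors deposited 1 FPKM value for each assembled locus in each library, together with transcript models classed against RefSeq. All 3 value columns were used, and 9 loci without transcripts were not.

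An mRNA locus (20117 loci) holds a transcript that matches a RefSeq protein-coding transcript. Differences of log2(FPKM + 1) were taken, with a limit of 2 (4-fold) and a background of mRNA loci that reached 1 FPKM in any library. No p-value was computed, since each stage has 1 library. Depth was approximated from the most frequent lowest value of FPKM times length in single-exon loci, and intervals are exact Poisson intervals at the shortest matched transcript length. Floors are 3 fragments. Older symbols were matched through RefSeq synonyms. Copies were searched with BLAST, and motifs on both strands of RefSeq promoter windows. The counting was tested on simulated data with planted changes. Python 3.11.15, pandas 2.3.3 and scipy 1.17.1 were used.

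The 10 genes and the related lists were chosen with earlier results of these data known. Named genes were all 10 members, the 3 loci of most similar course for Mb, Fabp3, Cd36 and Fabp5, all list genes past the limit from E10.5 to the adult (or the 3 largest rises and 2 largest falls where there were more than 5), and fixed partners: Gpihbp1, Lmf1, Angptl4, Acsl1, Pnpla2, Abhd5, Plin3, Plin4, Slc27a4 and Slc27a6. Marker genes were named as the most abundant of a list or where listed at 0. Adipoq, Cldn5, Ngb, Cidec, Myl7, Myl4, Nppa, Fabp9, Fabp12, Pmp2, Apoc2, Slc27a3 and Esrra were named after their values were seen. Alternatives were a pseudocount of 0.1, 3 scalings, a limit of 1, 2 other background filters, single-gene loci and marker sums without the most abundant gene, and, added after seeing the data, the length adjustment and the Fabp5 copy.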

Additional observations from a re-analysis of the deposited data

Results flagged for a closer look

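The 2 single-exon loci opposite Vldlr carried signal above the level that 3 fragments would give, in all 3 libraries, and enter no comparison of the report. The locus on the minus strand of chromosome 19 from 27221111 to 27242204 had 0.0881 FPKM in the E10.5 library, 0.0171 in the E13.5 library and 0.716 in the adult library. The neighbouring one, from 27242336 to 27257409, was at 0.0933, 0.0365 and 1.42 FPKM. Both were highest in the adult, as Vldlr was, and lowest at E13.5, where Vldlr was not lowest. Their levels were 0.169% to 2.0% of the Vldlr level in the same library. A further locus on that strand, without a gene name in the deposited annotation, was at 0.185, 0.0174 and 5.54 FPKM. It has 2 exons and runs from 27257482 to 27262361, just past the end of Vldlr. The paper lists it among its spliced lncRNA candidates, as Lnc424. The kit keeps strand, but its error rate in these libraries was not measured. At the 2 single-exon loci, fragments of Vldlr read on the wrong strand were therefore not told apart from antisense RNA.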

How the results depend on the processing

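No paired analysis was possible because there is only a single library at each stage. Of 153 recomputed differences of the 10 genes, 143 moved by less than 1.5-fold (0.58 on the log2 scale), 10 moved by more and 0 reversed after passing the limit. With a pseudocount of 0.1, 2 members (Lpl and Plin5) in place of 1 fell from E10.5 to E13.5, against 1.02% of background loci. Plin5 then went to -2.80, 7.92 and 5.12 in the order of the comparisons E10.5 to E13.5, E13.5 to adult and E10.5 to adult. With a limit of 1, 1 member (Plin2) in place of 0 was higher at E13.5 than at E10.5, against 5.89% of background loci. The length adjustment raised the members' median from E13.5 to the adult from 3.98 to 4.83 and kept 8 higher and 1 lower. All 3 scalings kept the members' counts.

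List counts from E10.5 to the adult were small and moved more. With a pseudocount of 0.1 the other transporters had 1 lower in place of 0, the lipase partners 2 higher and 2 lower in place of 1 and 1, and the acyl-CoA synthetases 2 higher in place of 1. Under both median-ratio scalings the lipase partners had 2 higher (Gpihbp1 and Apoc2) and 0 lower (Lipg lost), and the synthetases 0 lower in place of 1 (Acsl3 lost). With a limit of 1 the transporters had 2 higher and 1 lower, the partners 3 and 4, the synthetases 2 and 3, and the droplet list 1 lower in place of 0. Without Myl2 in the cardiomyocyte sum, Mb stood at 0.0341, 0.0202 and 0.561 of it and Fabp3 at 0.000935, 0.00126 and 0.00944. Background shares depend on the pseudocount: at 0.1, 9.75% of loci passed the limit upward between E10.5 and the adult, in place of 5.59%. Under median-ratio scaling the split from E13.5 to the adult turned from 4.41% higher and 9.88% lower to 7.13% and 6.12%. The depth is approximate, and Plin5 at E10.5 rests on about 16 fragments.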
